A study of Sus scrofa with 18 samples.

Results

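The genes of motile cilia, 61 of the 31908 genes counted in whole fetal brains of pigs, are described here. They were chosen by name: genes whose symbol begins with DNAH, DNAI, DNAAF, CFAP, RSPH or TEKT followed by a number, and FOXJ1, MCIDAS, CCNO, SPAG6, SPAG16, RFX2 and RFX3. HYDIN and SPAG17 were also asked for by name, but no row of the counts carries either symbol. By family, the set holds 29 CFAP, 8 DNAH, 6 RSPH, 5 DNAAF, 4 TEKT and 2 DNAI genes. Of the 61 genes, 60 were autosomal and DNAAF6 was on the X chromosome.

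A motile cilium beats because rows of dynein arms along its microtubule doublets slide the doublets against each other. Heavy chains (DNAH) are the motors of these arms, intermediate chains (DNAI) anchor them, and assembly factors (DNAAF) build the arms in the cytoplasm before transport. Radial spokes (RSPH) and the central apparatus (SPAG6, SPAG16, HYDIN and several CFAP proteins) regulate the beat, and tektins (TEKT) lie within the doublets. In the brain, ependymal cells that line the ventricles carry many such cilia, and choroid plexus cells carry them too. MCIDAS and CCNO act in cells that are becoming multiciliated, and FOXJ1 and the RFX factors turn on the genes of the axoneme. Several genes with a CFAP name, among them CFAP20, CFAP36 and CFAP410, also work outside motile cilia.

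Fetal brains were taken at 3 gestation days (GD45, GD60 and GD90), and 3 females and 3 males were sequenced on each day. The fetuses were the offspring of Landrace x Large White gilts, which had been inseminated artificially with semen of a commercial sire line. No fetus was treated or genetically altered. On each day, the fetuses came from litters of 3 different sizes, with 1 female and 1 male per litter size: 8, 16 and 17 at GD45, 8, 13 and 15 at GD60, and 10, 11 and 18 at GD90. A whole brain mixes the ventricle wall with all other tissue, so fewer ciliated cells and less RNA per ciliated cell cannot be told apart. P-values measure the spread between fetuses of a group, estimated over all 6 groups, and the comparisons of days were repeated on litter totals, the summed counts of the female and the male of a litter size.

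Libraries held 15118843 to 19729783 counts, with a median of 16413097. Levels are given as CPM, the count of a gene scaled by the total of its library, and between genes as FPKM, which also divides by gene length in kilobases. For genes of at least 5 exons and over 10000 bases (881 genes), the share of exon counts that fell in the 3'-most exon ranged from 18.6% to 36.8% over the libraries. Male GD90 libraries had the lowest shares (18.6% to 19.9%), and male GD45 replicate 17 had the highest. For genes of at least 5 exons under 3000 bases, the range was 27.6% to 34.6%. DNAH transcripts are among the longest in the set. Male GD45 replicate 17 also stood apart in normalization (TMM factor 0.849, against 0.943 to 1.07 in the other libraries).

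**Figure D1:**
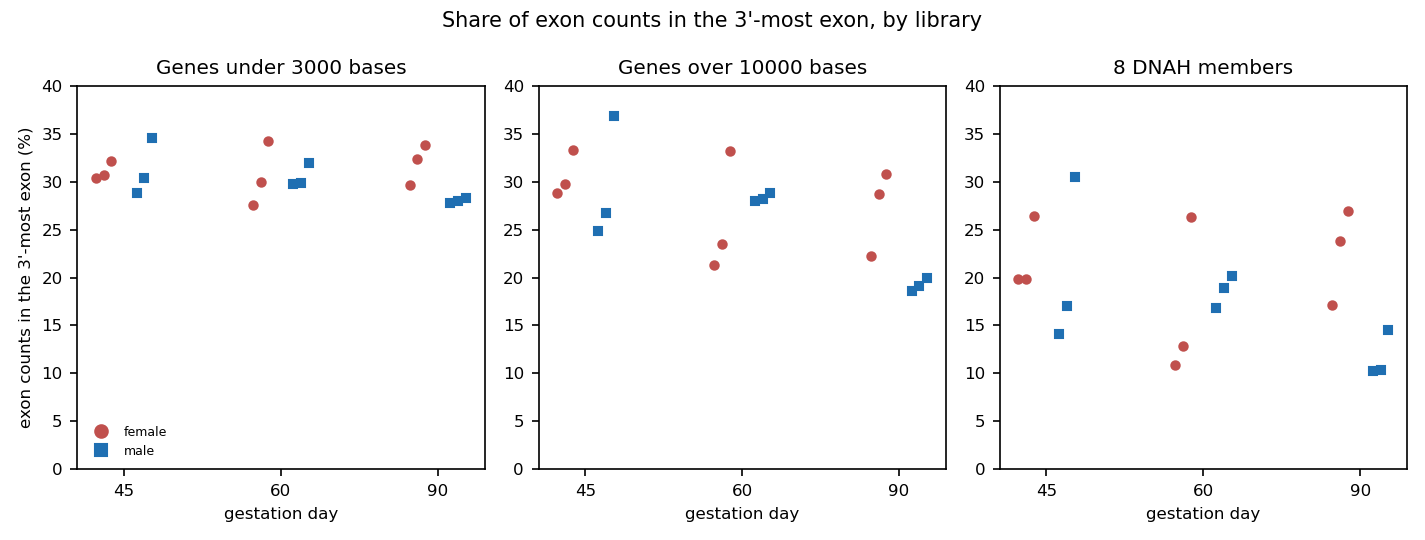
Share of exon counts in the 3'-most exon (%, y axis) by gestation day, with 1 point per library (circles, females; squares, males). Male GD90 libraries lie between 18.6% and 19.9% in genes over 10000 bases and between 10.2% and 14.6% in the 8 DNAH members, and the shares of genes under 3000 bases lie between 27.6% and 34.6%.

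Reads were counted for nearly the whole set at all 3 days, though with as few as 1 count for CFAP126 and CFAP58 in female GD45 replicate 12. A mean of at least 1 CPM was reached by 52 members and 9 lay under it, and 59 had a count in each of the 18 libraries, the exceptions being CFAP157 and TEKT5. Per length, 35 members had a mean of at least 1 FPKM. The summed CPM of the members had a lowest, median and highest library of 561, 625 and 719 at GD45, 600, 674 and 700 at GD60, and 571, 622 and 734 at GD90. The days overlapped in this sum. A few genes carried much of it: CFAP100, CFAP36, DNAH10, RFX3, CFAP20, CFAP298-TCP10L and CFAP410 held 49.9%.

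By family, the genes with the highest mean FPKM were CFAP298-TCP10L (40.3 FPKM), called CFAP298, a dynein assembly gene, in the table of gene names, and CFAP100 (22.5 FPKM), a regulator of inner dynein arms. The DNAH genes were led by DNAH10 (3.33 FPKM) and DNAH9 (0.907 FPKM), and the DNAI genes by DNAI2 (1.40 FPKM) and DNAI1 (0.748 FPKM). DNAAF5 (8.76 FPKM) and DNAAF2 (3.59 FPKM) led the assembly factors. RSPH9 (6.22 FPKM) and RSPH3 (4.91 FPKM) led the spoke genes, and TEKT1 (1.16 FPKM) and TEKT2 (1.11 FPKM) the tektins. These levels are means over all libraries, and no test was made between genes. The highest regulator was FOXJ1, at 11.6 FPKM.

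**Figure D2:**
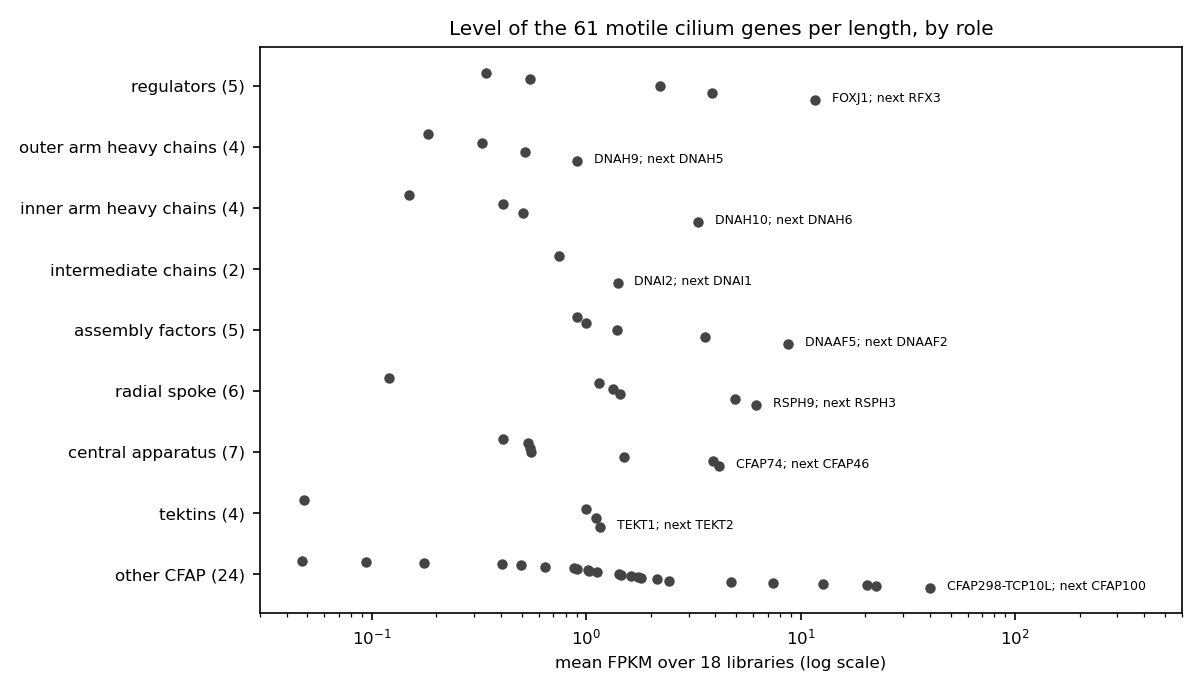
Mean FPKM of the 61 members over 18 libraries (x axis, log scale) by role (y axis, number of members in brackets), with 1 point per gene and the names of the highest and next highest. The heavy chains of the dynein arms lie below 1 FPKM except DNAH10 at 3.33 FPKM, and FOXJ1 lies at 11.6 FPKM.

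RFX factors bind the X-box, a pair of inverted arms, and the letters of an arm were searched in the genome from 250 bases before to 50 bases after the annotated start of each gene. An arm (GTTGCC or GTTGCT, either strand) was present in 35 of 61 member windows (57.4%), in 24.02% of 30431 windows of all genes and in 22.5% of 14378 windows of genes with a mean of at least 1 CPM. The rows of DNAAF2 and CFAP69 each span a neighbouring gene as well, and their windows lie at the starts of those neighbours, POLE2 and STEAP2. The window of DNAAF2 is 1 of the 35 with an arm. A pair of inverted arms at most 3 bases apart, which also counts as an arm above, was present in 3 members (4.92%), against 0.237% and 0.348%. The median GC content was 61% in member windows and 62.7% in those of genes with at least 1 CPM. The letters TGTTTAC or TGTTTAT, either strand, which forkhead factors such as FOXJ1 can bind, were present in 5 members (8.20%), against 7.81% and 4.82%. A match of letters is a description of the window, not a site shown to be bound. The 3 pairs are shown first because they are the complete form of the box. They are followed by the single arms of 4 members whose levels changed over gestation. All are from the Sscrofa11.1 genome, written 5′ to 3′ on the strand of the gene, with the arms in capitals.
CFAP126, chr4:89130080-89130104, plus strand, 7 bases before the start: tctgcaGTTGCCaGGCAACaaaggt
CFAP20DC, chr13:40768744-40768769, minus strand, 99 bases before the start: cccttgGTTGCCtgGGCAACgcctac
DNAI2, chr12:6832761-6832785, minus strand, 13 bases before the start: gccgggGTTGCTaGGCAACgggtaa
DNAH5, chr16:3430264-3430281, minus strand, 24 bases before the start: cgctatGGCAACcgcgtg
DNAH17, chr12:3473069-3473086, plus strand, 12 bases before the start: ccggttGTTGCCgcagat
CFAP61, chr17:28111606-28111623, plus strand, 48 bases before the start: gacggaGGCAACgtcgtt
DNAI1, chr10:32355407-32355424, minus strand, 19 bases before the start: cggttgGTTGCTgggtaa

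The genes shown did not share a direction from GD45 to GD90 over litter totals, defined above: CFAP20DC and DNAI2 fell, DNAH5, DNAH17, CFAP61 and DNAI1 rose, and CFAP126 was called in no comparison.

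The question of the day comparisons was which members changed as the brain grew. Differences are log2 fold changes with their standard error from edgeR's quasi-likelihood F test, and a gene is called when its p, adjusted over all genes tested, is under 0.05. Low counts kept CFAP58, CFAP157 and TEKT5 out of the 18-library fit, so 58 members were tested there, and 59 over litter totals. From GD45 to GD60, 2 members rose and 0 fell in females (all genes: 4.34% rose and 2.88% fell), and in males 0 rose and 2 fell (all genes: 3.08% and 2.53%). Without adjustment, 7 members in females and 7 in males had a p under 0.05 (all genes: 21.4% and 18.1%). From GD60 to GD90, 1 member rose and 5 fell in females (all genes: 13.7% and 13.4%), while 5 rose and 1 fell in males (all genes: 18.5% and 16%). As shares of the 58 members tested, these were 1.72% and 8.62% in females and 8.62% and 1.72% in males.

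Over litter totals, 3 members rose and 1 fell from GD45 to GD60 (all genes: 6.75% and 4.86%), and 4 rose and 4 fell from GD60 to GD90 (all genes: 18.7% and 18.7%). From GD45 to GD90, 9 rose and 7 fell, 15.3% and 11.9% of the 59 tested (all genes: 26.5% and 26.8%). The median log2 fold change of the members over this whole span was 0.02, and that of all genes was −0.02. In all, 19 of the 61 members were called in at least 1 of the 7 day comparisons and 42 in none. The 42 include members with too few counts to be tested, since 58 were tested within a sex and 59 over litter totals. The share of all genes called in at least 1 of the 7 is not given here, so these counts are not read as a trait of the members. The called genes lay on both sides of 0 and are given below by role. With the 3' share of each litter as a covariate, 11 of the 16 calls from GD45 to GD90 were lost, those of CCNO, DNAH17, DNAH7, DNAI1, DNAI2, DNAAF6, RSPH4A, CFAP65, CFAP97, CFAP20DC and CFAP298-TCP10L. The 5 of DNAH5, DNAAF2, CFAP36, CFAP61 and CFAP69 remained. Among the lost calls, those of CFAP65, DNAI1 and DNAI2 had a change no smaller with the covariate, but a larger standard error. The changes of the others were smaller. How many calls were lost among all genes is not given here, and the cause of the losses was not tested.

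**Figure D3:**
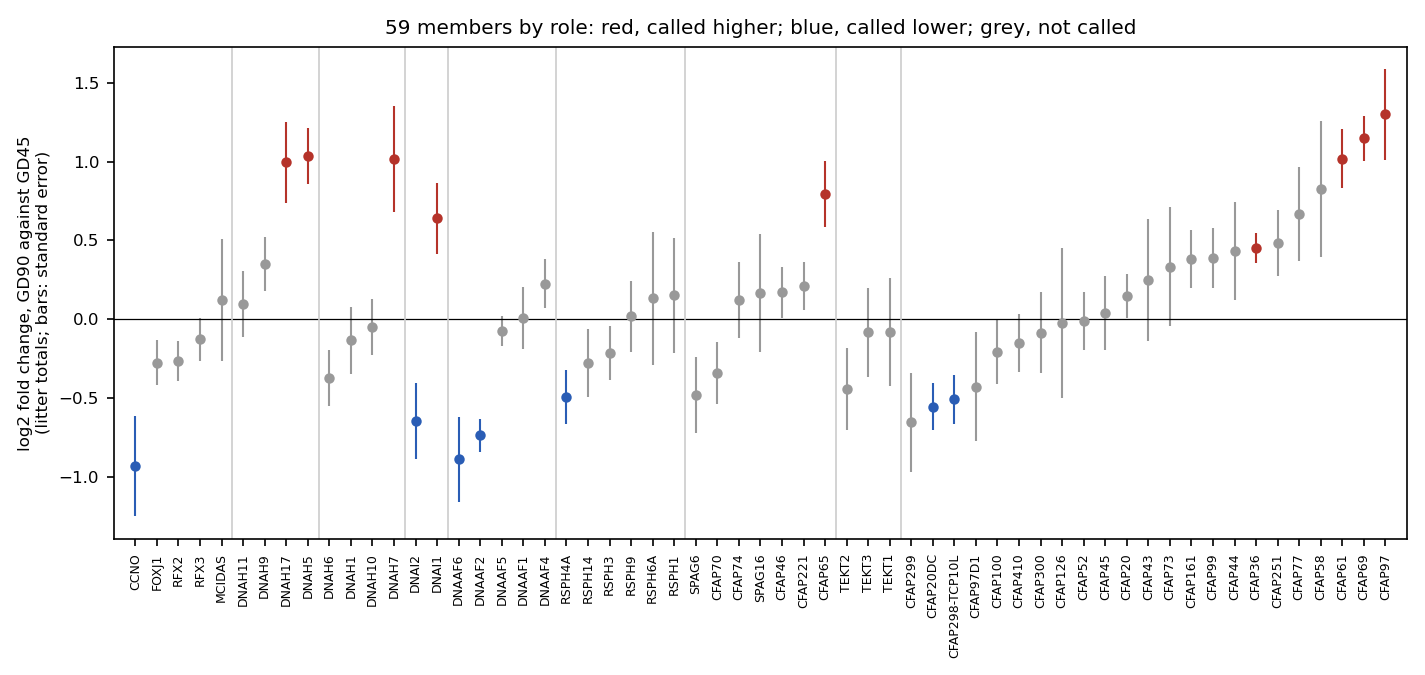
Log2 fold change of GD90 against GD45 over litter totals (y axis; bars, standard error) of the 59 members tested (x axis), grouped by role between the grey lines in the order regulators, outer arm and inner arm heavy chains, intermediate chains, assembly factors, radial spoke, central apparatus, tektins and other CFAP genes. Called members (red, 9 higher; blue, 7 lower) lie on both sides of 0.

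FOXJ1, the forkhead factor that switches on motile cilium genes, was present in every library. Its lowest, median and highest CPM were 23.3, 29.5 and 30.5 at GD45, 21.8, 28.4 and 35.2 at GD60, and 17.2, 22.4 and 28.4 at GD90. The days overlapped. Over litter totals it differed by −0.28 ± 0.14 between GD90 and GD45 (adjusted p = 0.13) and by −0.31 ± 0.14 between GD90 and GD60 (adjusted p = 0.11), neither of which was called. Without the GD90 litter of 10 both were called, at −0.42 and −0.45.

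RFX2 and RFX3, factors of the X-box, also kept overlapping levels. RFX2 had a lowest, median and highest CPM of 6.77, 8.56 and 10.1 at GD45, 7.30, 7.68 and 8.97 at GD60, and 6.03, 7.01 and 7.61 at GD90. RFX3 had 37.2, 48.7 and 57.0 CPM at GD45, 35.2, 48.0 and 69.9 at GD60, and 38.0, 42.7 and 52.3 at GD90. Neither was called in a comparison of days. A single exon of 7023 bases held 95.6% of the exon counts of RFX3, but these do not hold all of its reads. In female GD45 libraries that exon had a mean of 36.9 CPM and the other exons 1.26 CPM, against 45.4 to 57.0 CPM for the gene.

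MCIDAS and CCNO are neighbours on the minus strand of chromosome 16, at chr16:34377960-34384453 and chr16:34386548-34390576 of Sscrofa11.1, with 2094 bases between them. Both were near the limit of detection in a whole brain. MCIDAS, a coactivator that starts the multiciliated programme, had 0.307 to 1.10 CPM over the 18 libraries and was called in no comparison.

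CCNO, an atypical cyclin needed to multiply centrioles in multiciliated cells, fell late. In females it had 1.09, 1.14 and 0.986 CPM at GD45, 1.83, 0.991 and 1.93 CPM at GD60, and 0.227, 0.580 and 0.389 CPM at GD90. The 3 GD90 libraries held 4, 9 and 6 counts, and all lay below the females of both earlier days. In males it had 0.715, 0.979 and 1.78 CPM at GD45, 1.08, 1.19 and 1.27 CPM at GD60, and 0.652, 0.738 and 0.860 CPM at GD90. Male GD90 libraries lay below those of GD60 and overlapped those of GD45. From GD60 to GD90 the change was −1.92 ± 0.45 in females (adjusted p = 0.0046) and −0.67 ± 0.43 in males (adjusted p = 0.23), and over litter totals it was −1.26 ± 0.31 (adjusted p = 0.0089). Its call from GD45 to GD90 over litter totals was lost with the 3' share as a covariate (−0.64 ± 0.47, adjusted p = 0.31). The difference between the sexes in this change was itself not called (1.24 ± 0.62, adjusted p = 0.27).

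**Figure D4:**
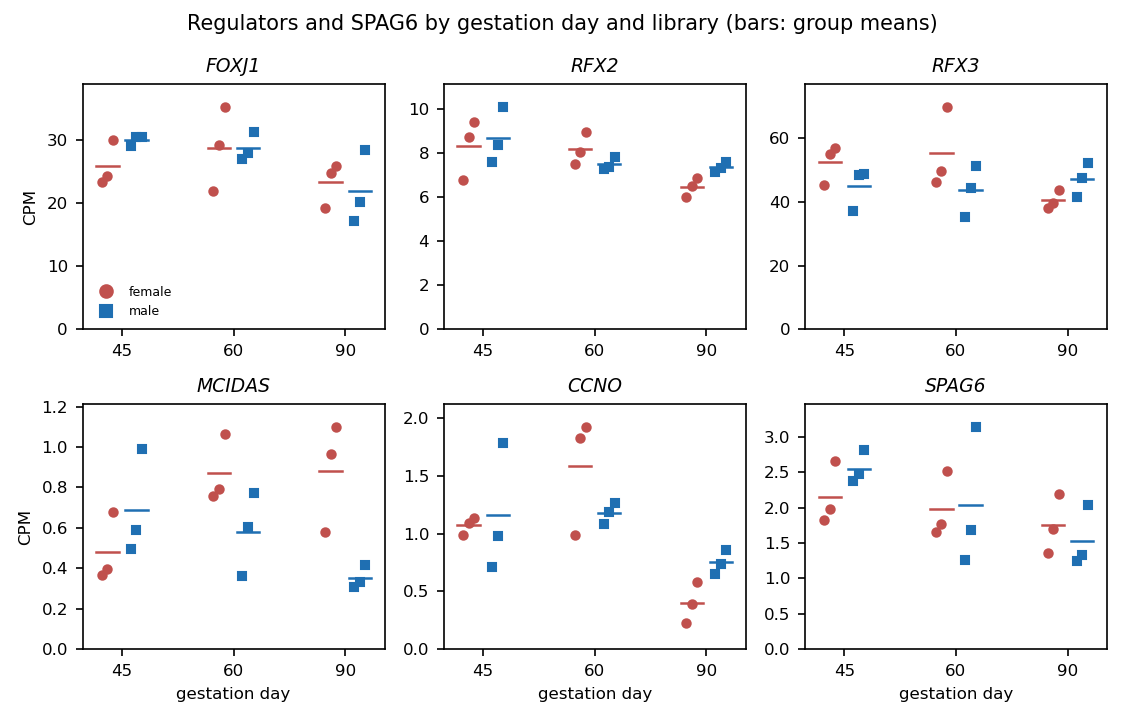
CPM (y axis) of 5 regulators and SPAG6 by gestation day (x axis), with 1 point per library (circles, females; squares, males) and a bar at the mean of each group of 3. CCNO at GD90 lies between 0.227 and 0.860 CPM, below every GD60 library, and the other genes overlap between days.

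The outer arm heavy chains, the motors that set beat frequency, were DNAH5, DNAH9, DNAH11 and DNAH17. Of these 4, DNAH5 and DNAH17 rose over litter totals from GD45 to GD90 and none fell. DNAH5 (chr16:3114279-3430251, minus strand) had 7.37, 7.11 and 4.22 CPM in males at GD45, 7.46, 4.63 and 4.89 at GD60, and 19, 12.6 and 16.3 at GD90. In females it had 5.00, 4.61 and 7.95 CPM at GD45, 9.51, 7.93 and 4.26 at GD60, and 6.18, 10.6 and 8.49 at GD90. Male GD90 libraries were all above the 15 others, and female days overlapped. The change from GD60 to GD90 was 1.48 ± 0.29 in males (adjusted p = 0.00097), 0.32 ± 0.28 in females (adjusted p = 0.44) and 0.96 ± 0.18 over litter totals (adjusted p = 0.0019).

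The rise of DNAH5 differed along its transcript. The 3'-most exon of DNAH5 held 49.6% of its exon counts. Outside that exon, the mean rose from 2.22 to 8.62 CPM between male GD60 and male GD90, and it was 2.99 CPM in females at both days. In the 3'-most exon alone the male change was 0.78 ± 0.29 (adjusted p = 0.056), and with the 3' share of each library as a covariate it was 0.90 ± 0.27 (adjusted p = 0.020).

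DNAH17, a heavy chain best known from sperm, had a lowest, median and highest level that overlapped between days, and its change over litter totals from GD45 to GD90 was 1.00 ± 0.26 (adjusted p = 0.0072). In its 3'-most exon alone the change was −0.20 ± 0.30 (adjusted p = 0.62), the opposite sign, and with the 3' share as a covariate it was 0.60 ± 0.36 (adjusted p = 0.21). It also shares 550 exon bases with PGS1 on the opposite strand, which had 97.2 CPM against its own 4.58. DNAH9, the outer arm chain of the distal cilium, had the most FPKM of the outer arm and was not called in any day comparison (0.35 ± 0.17 from GD45 to GD90, adjusted p = 0.10). DNAH11 was not called either.

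The inner arm heavy chains shape the bend of the cilium, and DNAH10 was by far the highest of the 4 members, DNAH1, DNAH6, DNAH7 and DNAH10. DNAH10 (chr14:29095486-29249864, minus strand) peaked at GD60 in females, with 34.2, 27.2 and 49.6 CPM at GD45, 77.3, 78.0 and 57.7 at GD60, and 20.6, 33.9 and 33 at GD90. Its levels in males were 54.5, 42.6 and 33.3 CPM at GD45, 68.3, 57.4 and 59.9 at GD60, and 34.5, 42.8 and 64.2 at GD90. Each of the 6 GD60 libraries was above all 6 GD45 libraries, while male GD90 replicate 10 reached the GD60 range. In females the change was 0.96 ± 0.24 from GD45 to GD60 (adjusted p = 0.020) and −1.20 ± 0.24 from GD60 to GD90 (adjusted p = 0.0013). In males it was 0.50 ± 0.23 (adjusted p = 0.27) and −0.41 ± 0.23 (adjusted p = 0.19). Over litter totals both steps were called, 0.72 ± 0.18 (adjusted p = 0.022) and −0.77 ± 0.18 (adjusted p = 0.0056).

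The higher mean of DNAH10 at GD60 was seen in most of its exons with enough counts. Of its 82 exons, 49 had at least 30 counts, and mean CPM at GD60 was above that of GD45 in 47 of them and above that of GD90 in 38. In the 3'-most exon alone, both female calls were lost (adjusted p = 0.069 for GD60 to GD90), as was that from GD45 to GD60 over litter totals. With the 3' share as a covariate these calls held. The female call from GD45 to GD60 was also lost with exon counts summed, and without female GD45 replicate 12 or 13 or female GD60 replicate 3 or 5.

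DNAH1, a single-headed inner arm motor, was also highest at GD60. In females it had 3.54, 2.96 and 5.92 CPM at GD45, 8.82, 7.53 and 6.28 at GD60, and 2.89, 5.22 and 2.59 at GD90. Males had 5.94, 4.37 and 4.88 CPM at GD45, 8.25, 8.01 and 6.28 at GD60, and 3.44, 4.68 and 5.89 at GD90. All GD60 libraries lay above all libraries of the other days. The fall from GD60 to GD90 was called in females (−0.99 ± 0.29, adjusted p = 0.017) and over litter totals (−0.85 ± 0.21, adjusted p = 0.0094), and the change from GD45 to GD60 over litter totals was not (0.71 ± 0.21, adjusted p = 0.052).

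DNAH6 fell in females from 8.56, 8.32 and 6.23 CPM at GD60 to 3.57, 4.12 and 3.89 CPM at GD90 (−0.90 ± 0.27, adjusted p = 0.018). In males it had 7.95, 5.34 and 3.74 CPM at GD60 and 6.40, 6.40 and 8.53 CPM at GD90 (0.32 ± 0.26, adjusted p = 0.36). The female days did not overlap and the male days did. DNAH7 rose in males, from 1.75, 0.890 and 0.422 CPM to 2.67, 3.20 and 4.17 CPM (1.71 ± 0.44, adjusted p = 0.0070), and in females it had 2.96, 2.44 and 1.37 CPM and then 1.47, 1.87 and 2.01 CPM (−0.24 ± 0.42, adjusted p = 0.72). The male rise of DNAH7 was not called with the 3' share as a covariate (1.05 ± 0.49, adjusted p = 0.13), nor was its change from GD45 to GD90 over litter totals (0.48 ± 0.47, adjusted p = 0.44). It overlaps SLC39A10, a gene of 102 CPM on the opposite strand, over 216 exon bases.

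**Figure D5:**
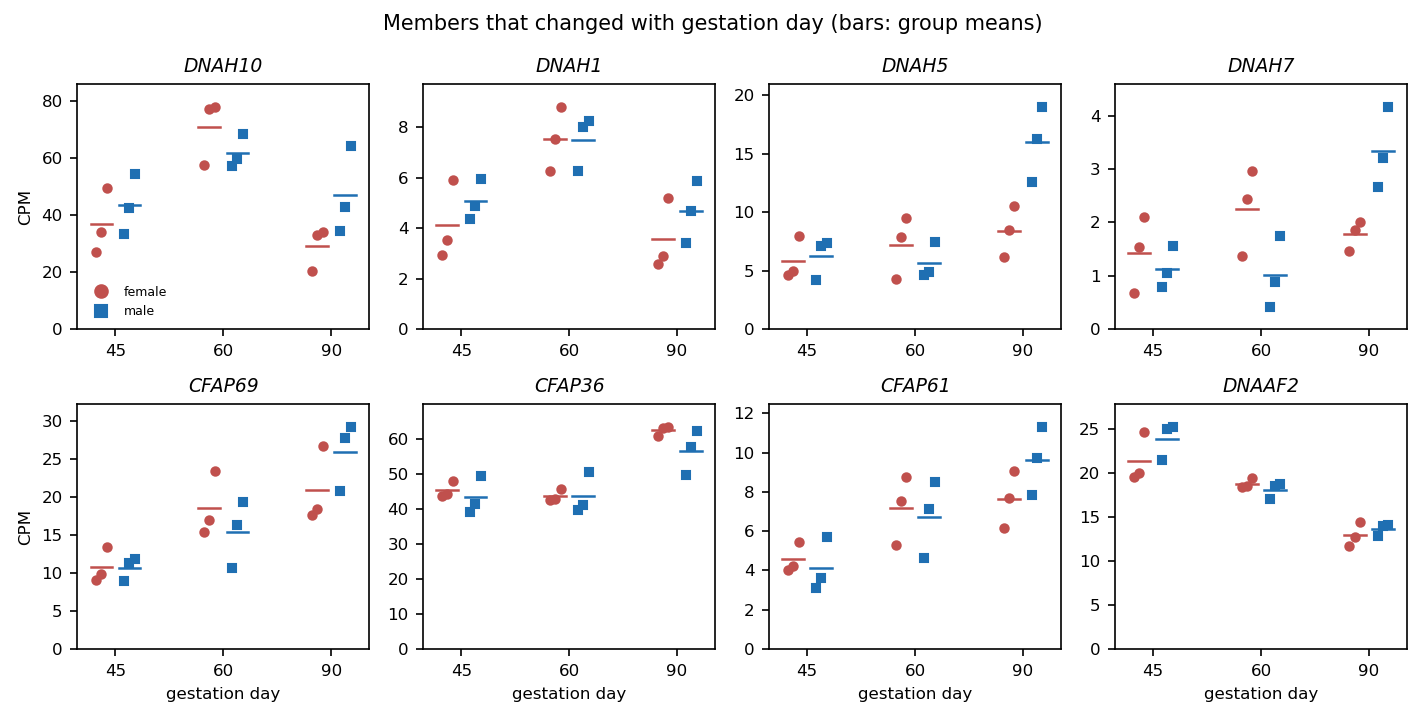
CPM (y axis) of 8 members that changed with gestation day (x axis), with 1 point per library (circles, females; squares, males) and a bar at the mean of each group of 3. DNAH10 and DNAH1 are highest at GD60, DNAH5 and DNAH7 at GD90 in males, CFAP69, CFAP36 and CFAP61 at GD90, and DNAAF2 steps down from GD45 to GD90; the rows of DNAAF2 and CFAP69 each span 2 RefSeq genes.

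The 2 intermediate chains of the outer arm went opposite ways over litter totals from GD45 to GD90. DNAI1 rose by 0.64 ± 0.23 (adjusted p = 0.033), from a mean of 1.46 to 2.23 CPM, and DNAI2 fell by 0.65 ± 0.24 on the log2 scale (adjusted p = 0.041), from a mean of 9.08 to 5.69 CPM. The libraries of both days overlapped for each, and neither was called within a sex. With the 3' share as a covariate neither change was called (0.73 ± 0.35, adjusted p = 0.12, and −0.86 ± 0.35, adjusted p = 0.070).

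Among the 5 rows of assembly factors, that of DNAAF2 fell late in both sexes and that of DNAAF6 fell over the whole span. DNAAF2 is a cochaperone for folding dynein heavy chains. Its row is called POLE2, a subunit of DNA polymerase epsilon, in the table of gene names, and spans both RefSeq genes, DNAAF2 at chr1:179482189-179491136 and POLE2 at chr1:179495278-179529891. The exons within DNAAF2 held 89.8% of the exon counts of the row, but these do not hold all of its reads. In female GD45 replicate 12 the exons within DNAAF2 had 13.6 CPM and those within POLE2 1.93 CPM, against 20.1 CPM for the row. The share of the remaining reads that belongs to each gene was not tested. The row had 20.1, 19.6 and 24.7 CPM in females at GD45, 18.5, 19.5 and 18.4 at GD60, and 12.7, 11.7 and 14.4 at GD90. The male libraries had 25.1, 25.3 and 21.5 CPM at GD45, 18.8, 18.6 and 17.1 at GD60, and 14, 12.9 and 14.2 at GD90. No GD90 library reached the lowest library of either earlier day. From GD60 to GD90 it fell by 0.45 in females (SE 0.12, adjusted p = 0.0094) and by 0.42 in males (SE 0.12, adjusted p = 0.012) on the log2 scale. From GD45 to GD60 it was called in males (−0.43 ± 0.12, adjusted p = 0.043) and not in females (−0.16 ± 0.12, adjusted p = 0.46). Over litter totals the change from GD45 to GD90 was −0.74 ± 0.10 (adjusted p = 0.00014), a level 0.599 times that of GD45. In the exons within DNAAF2 alone it was −0.69 ± 0.12 (adjusted p = 0.00073), with means of 14 and 17.5 CPM at GD45 and 9.29 and 10.3 CPM at GD90 in females and males, and the male change from GD45 to GD60 was not called there (−0.50 ± 0.13, adjusted p = 0.054).

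DNAAF6, another assembly factor of the family of DNAAF2, went from a mean of 2.03 to 1.08 CPM over litter totals between GD45 and GD90 (−0.89 ± 0.27, adjusted p = 0.016), with no overlap between the 6 libraries of each day. It was not called with the 3' share as a covariate (−0.59 ± 0.41, adjusted p = 0.28). DNAAF5, the assembly factor with the highest FPKM, was not called (−0.07 ± 0.10, adjusted p = 0.54). It shares 842 exon bases with PRKAR1B, a gene of 271 CPM on the opposite strand. DNAAF1 and DNAAF4 were not called in any comparison of days.

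Of the 6 radial spoke genes, RSPH4A, of the spoke head, was called and the other 5 were not, with a fall over litter totals from GD45 to GD90 (−0.50 ± 0.17, adjusted p = 0.030) between means of 3.96 and 2.74 CPM. With the 3' share as a covariate it was not called (−0.37 ± 0.25, adjusted p = 0.27). RSPH9, another spoke head gene, differed by 0.02 ± 0.22 (adjusted p = 0.95) and RSPH3, of the spoke stalk, by −0.21 ± 0.17 (adjusted p = 0.31). RSPH9 and RSPH1 overlap more abundant genes on the opposite strand, MRPS18A and SLC37A1.

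In the central apparatus, 1 of 7 members was called. CFAP65 rose over litter totals from GD45 to GD90, from a mean of 2.58 to 4.41 CPM (0.79 ± 0.21, adjusted p = 0.0082), with no overlap between days, and was not called with the 3' share as a covariate (0.82 ± 0.32, adjusted p = 0.061). SPAG6, a protein of the central pair, had 1.24 to 3.14 CPM over all libraries and SPAG16, another, 0.724 to 4.39 CPM. Over litter totals from GD45 to GD90 they differed by −0.48 ± 0.24 (adjusted p = 0.11) and 0.17 ± 0.37 (adjusted p = 0.73). For SPAG16, 83.8% of exon counts fell in 1 exon of 3023 bases. The tektins were low and not called in any comparison, with TEKT1 at −0.08 ± 0.34 and TEKT2 at −0.45 ± 0.26 over litter totals from GD45 to GD90 (adjusted p = 0.86 and 0.17).

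Of the 23 other CFAP genes tested over litter totals from GD45 to GD90, 4 rose and 2 fell. The row of CFAP69, a gene required for sperm flagella and found in olfactory cilia, rose over both periods in litter totals. The table of gene names calls this row STEAP2, a metalloreductase, and it spans both RefSeq genes, STEAP2 at chr9:70334785-70365687 and CFAP69 at chr9:70373422-70430383, which held 50.4% and 49.6% of its exon counts. Here too the exon counts fall short of the row, with 2.81 and 3.38 CPM in female GD45 replicate 12 against 9.05 CPM for the row. In females the row had 9.05, 9.90 and 13.5 CPM at GD45, 16.9, 15.5 and 23.5 at GD60, and 18.4, 17.7 and 26.8 at GD90. In males it had 11.4, 11.9 and 8.96 CPM at GD45, 16.3, 19.3 and 10.7 at GD60, and 20.8, 27.7 and 29.3 at GD90. The GD90 libraries all lay above those of GD45, and GD60 lay between with overlaps. The change from GD45 to GD60 was 0.82 ± 0.23 in females (adjusted p = 0.043), that from GD60 to GD90 was 0.73 ± 0.23 in males (adjusted p = 0.022), and that from GD45 to GD90 over litter totals was 1.145 ± 0.14 (adjusted p = 5.3e-05), or 2.22-fold. Mean CPM at GD90 was above that of GD45 in all 16 exons with at least 30 counts. In the exons within CFAP69 alone, the change from GD45 to GD90 over litter totals was 1.02 ± 0.26 (adjusted p = 0.0079), while those from GD45 to GD60 (0.71 ± 0.26, adjusted p = 0.13) and from GD60 to GD90 (0.30 ± 0.26, adjusted p = 0.40) were not called, nor were the changes within a sex. The exons within STEAP2 changed by 1.40 ± 0.19 from GD45 to GD90 (adjusted p = 0.00010).

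CFAP36, a binding partner of the small GTPase ARL3, was not called from GD45 to GD60 (−0.01 ± 0.09 over litter totals, adjusted p = 0.95) and then rose. In females it had 48.0, 43.6 and 44.1 CPM at GD45, 45.7, 42.5 and 42.9 at GD60, and 63.5, 60.8 and 63.0 at GD90. Its levels in males were 49.4, 41.3 and 39.0 CPM at GD45, 50.6, 41.1 and 39.6 at GD60, and 49.8, 57.7 and 62.2 at GD90. The female GD90 libraries stood clear of the earlier days, and male GD90 replicate 1 did not. From GD60 to GD90 it rose by 0.60 ± 0.12 in females (adjusted p = 0.0010) and by 0.35 ± 0.12 in males (adjusted p = 0.025), and all 10 of its exons had a higher mean at GD90 than at GD45. It shares 4014 exon bases with PPP4R3B on the opposite strand, which had 65.6 CPM.

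CFAP97 and CFAP61 also rose over litter totals from GD45 to GD90. CFAP97 went from a mean of 5.00 to 12 CPM (1.30 ± 0.29, adjusted p = 0.0028). Males had 10.4, 2.79 and 4.77 CPM at GD60 and 13.3, 16.9 and 15.7 CPM at GD90 (1.35 ± 0.46, adjusted p = 0.031). With the 3' share as a covariate neither was called (0.52 ± 0.25, adjusted p = 0.12, and 0.35 ± 0.41, adjusted p = 0.58), whereas in its 3'-most exon alone both were (1.82 ± 0.29 and 1.86 ± 0.53). CFAP61, of a complex at the base of the radial spokes, went from a mean of 4.35 to 8.64 CPM (1.02 ± 0.19, adjusted p = 0.00090), with no overlap between days.

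CFAP20DC and CFAP298-TCP10L fell over litter totals from GD45 to GD90. CFAP20DC had 9.02, 9.01 and 9.89 CPM in males at GD45 and 5.60, 6.64 and 4.77 CPM at GD60 (−0.75 ± 0.19, adjusted p = 0.024), and over litter totals it differed by −0.56 ± 0.15 at GD90 (adjusted p = 0.0090), or by −0.35 ± 0.21 with the 3' share as a covariate (adjusted p = 0.19). When its exon counts were summed, the male change was −0.11 ± 0.36 (adjusted p = 0.93). That sum holds a small part of its reads, with 326 exon counts over all 18 libraries. The gene had 164, 138 and 150 counts in the male GD45 libraries alone, so the 2 changes are not of the same reads. CFAP298-TCP10L changed by −0.51 ± 0.15 (adjusted p = 0.016), and male GD45 replicate 17 was its highest library, at 67.8 CPM. With the 3' share as a covariate the change was −0.03 ± 0.12 (adjusted p = 0.86), and without the GD45 litter of 8, to which that library belongs, it was −0.36 ± 0.14 (adjusted p = 0.058). CFAP100 was not called (−0.21 ± 0.20, adjusted p = 0.42).

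No member was called between the sexes. Of the 58 members, 0 were called between males and females at GD45 (all genes: 0.0919%), GD60 (all genes: 0.098%) or GD90 (all genes: 0.098%), with edgeR, its likelihood ratio test or DESeq2. Without adjustment, 2, 1 and 5 members had a p under 0.05 (all genes: 2.59%, 4.802% and 13.6%). The 5 at GD90 were DNAH5, DNAH6, DNAH10 and DNAH17, which were higher in males, and MCIDAS, which was lower in males (−1.37 ± 0.46, adjusted p = 0.35) with 0.415, 0.308 and 0.331 CPM against 0.964, 0.580 and 1.10 CPM in females.

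For the difference between the sexes in the change from one day to the next, 0 of 58 members were called for GD45 to GD60 (all genes: 0%) and 0 for GD60 to GD90 (all genes: 0%), by edgeR's F test, its likelihood ratio test or DESeq2. Without adjustment there were 0 and 4 of 58, and 333 and 3232 among all genes (2.04% and 19.8%). The 4 were heavy chains whose log2 change was greater in males, with DNAH7 at 1.94 ± 0.61 (adjusted p = 0.19), DNAH6 at 1.22 ± 0.37 (adjusted p = 0.19), DNAH5 at 1.17 ± 0.40 (adjusted p = 0.21) and DNAH10 at 0.79 ± 0.33 (adjusted p = 0.23). The male GD90 libraries that enter these differences are those with the lowest share of counts in the 3'-most exon. With that share as a covariate, the male changes of DNAH5 and DNAH7 are given above, but the differences between the sexes are not given here. Without male GD45 replicate 17, DNAH6, DNAH7 and CFAP410 were called (adjusted p = 0.039, 0.046 and 0.021). The share of all genes called in that fit is not given here, so these calls are not read as a trait of the members.

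Libraries differed in the level of the members together. Female GD45 replicate 18 had the highest CPM of its day in 24 of 61 members, male GD90 replicate 10 in 22, and female GD90 replicate 2 had the lowest in 24. The median over all genes with a mean of at least 1 CPM moved the same way in these libraries, though less. The median log2 ratio to the other libraries of the day was 0.27 in members and 0.09 in those genes for female GD45 replicate 18. It was 0.11 and 0.04 for male GD90 replicate 10, and −0.15 and −0.05 for female GD90 replicate 2. These standings rest on CPM within a day, without TMM scaling, and were not tested.

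The genes around the set give its setting, described by their counts over litter totals from GD45 to GD90, in which 26.5% of all genes rose and 26.8% fell. Of 19 tested regulators of multiciliation and centriole number, which include the 5 members above, 2 rose and 9 fell. TP73, a p53 relative that acts upstream of FOXJ1, fell by 1.80 (SE 0.17), from a lowest, median and highest CPM of 6.79, 8.41 and 13.2 to 2.31, 2.69 and 3.14. MYB, a cell cycle factor that also acts early in multiciliated cells, fell by 1.73 (SE 0.18), SASS6, of the centriole cartwheel, by 1.116 (SE 0.17), and E2F5, a partner of MCIDAS, by 0.95 (SE 0.18). GMNC, which acts above MCIDAS, had 0.284 to 1.11 CPM in all libraries. Of these, MYB, SASS6 and E2F5 are also used by dividing cells, whose number in these brains was not measured.

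Of 90 tested motile cilium genes outside the naming rule, 20 rose and 15 fell, with a median of −0.01. TUBA4A, an alpha tubulin also made by neurons, rose by 4.99 ± 0.17, and NEK10, a kinase of motile cilia, by 1.56 ± 0.19. TCTEX1D4, a dynein light chain relative, fell by 2.07 (SE 0.35) and KIF27, a kinesin of motile cilia, by 1.45 (SE 0.16). Of 60 primary cilium genes 11 rose and 14 fell, and of 17 genes of cytoplasmic dynein and dynactin 5 rose and 4 fell.

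Ependymal markers that are not part of the axoneme moved in both directions. Of 20 tested, 7 rose and 3 fell, and their summed CPM had a lowest, median and highest library of 1941, 2293 and 2390.1 at GD45 and 3620, 3811 and 4025 at GD90. AQP4, a water channel shared with astrocytes, rose by 4.05 ± 0.32, and CLU, also shared with astrocytes, rose by 1.43 ± 0.13. Their median CPM went from 34.8 to 526 and from 618 to 1646, most of the rise in the sum. MLC1, a membrane protein shared with astrocytes, rose by 3.01 ± 0.17, whereas SIX3, a homeobox factor of the ventricle wall, fell by 1.73 (SE 0.10). Astrocyte markers themselves rose in 5 of 6 tested. TMEM212, an ependymal marker, had at most 0.169 CPM in any library, and CCDC153, another, had 1.66 to 5.60 CPM. Of 27 choroid plexus genes 6 rose and 15 fell.

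Other cell types moved over the same span. All 7 tested oligodendrocyte markers and all 8 microglial markers rose, 6 of 8 neuronal and 3 of 7 endothelial markers rose and 0 fell, and 8 of 14 radial glia markers and 5 of 6 erythroid markers fell. Radial glia markers moved in both directions. NES fell by 2.30 (SE 0.17), whereas PROM1 rose by 2.29 ± 0.15 and LIFR by 1.79 ± 0.40. Of 6 meningeal markers 1 rose and 3 fell. The part of this change in cell composition in the levels of the members was not tested. Of 7 airway and olfactory markers in the counts, 2 were tested and none was called. Their summed level was 1.11 to 3.05 CPM over all libraries, near that of a single low member such as SPAG6 (1.24 to 3.14 CPM). Whether ciliated cells from outside the brain gave reads was not tested. Of 2 tested pancreatic genes 1 fell.

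For 3 members, DNAAF2, CFAP69 and CFAP298-TCP10L, the symbol in the counts differs from that in the table of gene names. Further genes belong to the families under other names. The table of gene names gives a family name to 12 rows that carry no symbol in the counts, and 16 genes carry an older symbol. Over litter totals from GD45 to GD90, 1 of 9 tested in the first group rose and none fell, and 4 of 15 rose and 2 fell in the second. CFAP92, of the first group, rose from a mean of 2.62 to 4.89 CPM (0.92 ± 0.28, adjusted p = 0.016). In the second group CFAP276, under the symbol C1orf194, fell from a mean of 9.418 to 4.398 CPM (−1.07 ± 0.17, adjusted p = 0.00038). SPAG17 is in the first group, with a mean of 0.224 CPM.

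Many members share their exons with another gene, which matters where reads are counted without strand, and whether the counting used it is not given in the sources used here. Of the 61 members, 22 have an exon that overlaps another gene and 20 of these overlap one with a higher mean CPM.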

How the data were processed

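The deposited tables hold raw read counts per gene and per exon. The authors trimmed paired-end reads of oligo(dT)-selected mRNA with Trimmomatic, aligned them to Sscrofa11.1 with HISAT2 and made the counts with featureCounts; quality was checked with FastQC. The strand option and the treatment of reads shared by features are not given in the sources used here. The gene table has 22 columns for 18 libraries, of which 4 have 2 runs that were summed, and 0 other columns of samples.

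Gene counts were tested with edgeR 4.0.16 in R 4.3.3. The filter filterByExpr kept 16325 genes (99.93% of counts), libraries were scaled by TMM, and 1 model of 6 groups of sex and day was fitted. Quasi-likelihood F tests were adjusted by the Benjamini-Hochberg method over all genes kept, with a threshold of 0.05. The standard error of a log2 fold change is its size divided by the square root of F. Litter totals (3 per day, 17003 genes kept) were fitted by day. A female and a male of the same day and litter size were taken as littermates, since the labels give litter sizes and no dam. The steps were tested on simulated counts.

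Results were recomputed with DESeq2 1.42.0, with the likelihood ratio test of edgeR, with no TMM, a filter of over 1 CPM in 3 libraries, no filter, removal of a trend on gene length, exon counts summed per gene, the 6 libraries compared alone, the litter as a replicate block, each library or litter left out, and genes named by the table of gene names added. The 3' share, the counts of the 3'-most exon and, for 2 rows that span 2 RefSeq genes (DNAAF2 and CFAP69), the exons of the named gene alone were added after the data were seen.

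The members and all gene lists were chosen with earlier results of these data known, so no list's direction is independent evidence. Full values are printed for FOXJ1, MCIDAS, CCNO, RFX2, RFX3, SPAG6 and SPAG16, for the highest and next highest FPKM of each family, and for up to 5 rises and 5 falls called within a sex. Members called over litter totals, CFAP157, CFAP410, the motif examples and the genes that overlap members were named after their values were seen. From other lists, up to 4 called genes are named. Exons count as read where they hold at least 30 counts over all libraries. Sequences were read from the reference genome of the files' build.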

Additional observations from a re-analysis of the deposited data

How the results depend on the processing

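For GD60 against GD45, the 2 calls in females became 1 without TMM, 1 with the length trend removed, 1 with the 6 libraries compared alone, 0 with exon counts summed and 0 in the 3'-most exon alone, and 0 to 3 when 1 library was left out. In males the 2 calls became 1 without TMM and 0 without a filter, with exon counts summed, with the 6 libraries alone and in the 3'-most exon alone, and 0 to 2 when 1 library was left out. Summed exon counts leave out reads of some members, CFAP20DC among them. For GD90 against GD60, the 6 calls in females became 1 in the 3'-most exon alone and were 4 to 8 when 1 library was left out. The 6 in males became 11 with the 6 libraries alone and 3 in the 3'-most exon alone, and were 3 to 10 when 1 library was left out (3 without male GD60 replicate 16 or male GD90 replicate 8, 10 without male GD45 replicate 17).

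Between the sexes at GD90, 3 members (CFAP97, DNAH5 and DNAH6) were called with the 6 libraries alone. For the difference between the sexes from GD60 to GD90, 0 to 3 were called when 1 library was left out, with 3 without male GD45 replicate 17. In the main fit, 13.6% and 19.8% of all genes had an unadjusted p under 0.05 in these F tests. Shares of all genes called in the alternatives are not given here, so these counts are not read as a trait of the members. Over litter totals, the 4 calls for GD60 against GD45 became 7 when the sexes were averaged over 18 libraries with no replicate block and 0 in the 3'-most exon alone, and were 1 to 4 when 1 litter was left out. The 8 calls for GD90 against GD60 became 5 in the 3'-most exon alone, and were 6 to 10 when 1 litter was left out. The 16 for GD90 against GD45 became 7 with the 3' share as a covariate, of which 5 were among the 16, and 5 in the 3'-most exon alone, and were 11 to 16 when 1 litter was left out (11 without the GD90 litter of 11). The 3'-most exon holds fewer counts and fewer members were tested there. With the litter as a replicate block, 0 members were called between the sexes at each day and 0 in their differences between days, as without the block.

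Of the 44 calls of a member in a comparison, 11 held under every alternative that gave a value and 33 were lost under at least 1. Those that held were CCNO for GD90 against GD60 in females and over litter totals, CFAP36 and DNAAF2 for GD90 against GD45 and GD60, CFAP61 and CFAP69 for GD90 against GD45, and DNAH1, DNAH5 and DNAH10 for GD90 against GD60, all but the first over litter totals. DNAH17 reversed in the 3'-most exon alone, at −0.48 for GD90 against GD60 and −0.20 for GD90 against GD45 over litter totals, and the cause was not tested. FOXJ1 was called from GD60 to GD90 in males without male GD90 replicate 1 (−0.64, adjusted p = 0.024), and RFX3 in females with the 3' share as a covariate (−0.39, adjusted p = 0.049). Genes of few counts, such as CCNO and MCIDAS, are limited by depth.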
